A study of Mus musculus with 12 samples.

Results

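The genes described here are 39 interferon-stimulated genes, found by gene name among the 55862 genes of the deposited expression table and followed across its 12 samples. They were chosen with results of these data in view, from values not recorded in the sources used here. Their levels, differences and calls are therefore given as a description, without p-values. RNA was sequenced from 3 samples in each of 4 groups, from mouse brain, with the strain labelled C57BL/6 throughout. The study's methods give C57BL/6J for both NPC groups and C57BL/6 for the astrocytes. ASTs were primary astrocytes from the cerebral cortex of mice at postnatal days 1 to 2, grown with fetal bovine serum and taken on day 0, before any sphere culture. A-iSCs (astrocyte-induced stem cells) were ASTs kept for 5 days as floating spheres on agarose, without added genes, RNA or proteins. P56-NPCs were suspensions dissociated from the subependymal zone at postnatal day 56, and P0-NPCs were suspensions dissociated from the hippocampus at postnatal day 0. The labels use the NPC (neural precursor cell) suspensions as positive controls and the ASTs as negative controls. No sort for NPCs was stated, and neither was the number of mice or cultures behind a sample. The study's statistics section mentions 3 independent experiments, without saying whether this covers the sequenced samples. The spread between samples may therefore be technical.

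Interferons are cytokines that cells secrete when they sense viral or misplaced nucleic acid. Type I interferons bind the receptor chains encoded by Ifnar1 and Ifnar2, whose kinases Jak1 and Tyk2 phosphorylate STAT2 among other proteins. STAT2 takes part with IRF9 in a complex that binds the interferon-stimulated response element (ISRE) in target promoters, whereas interferon gamma acts at the gamma-activated site (GAS). The genes induced encode antiviral effectors, nucleic acid sensors, GTPases and regulators of the response, and both astrocytes and microglia can express them.

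RefSeq promoter windows on GRCm38.p6, from 250 bases before to 50 after the transcription start, were given for 28 of the 39 genes. The core of the ISRE was searched on both strands as GAAA, any 2 bases and GAAA again, and was found in 18 of the 28 (64.3%), against 3.99% of the 27025 genes with a window. In 8 genes (28.6%, against 0.211% of all genes) at least 2 matches lay wholly upstream of the start. The 6 of these whose stretch lies outside the gene model of the deposited table are shown on the gene's strand, each 5′ to 3′ with up to 20 flanking bases, as examples of repeated matches. Capitals mark the matches, which overlap in Isg15, Oas1a and Bst2.
Isg15: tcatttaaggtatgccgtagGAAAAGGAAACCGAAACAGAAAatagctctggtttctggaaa
Oas1a: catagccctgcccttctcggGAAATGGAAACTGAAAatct
Bst2: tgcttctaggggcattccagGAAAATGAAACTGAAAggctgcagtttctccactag
Ifit1: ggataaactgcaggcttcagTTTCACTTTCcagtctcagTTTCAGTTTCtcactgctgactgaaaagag
Ifit3: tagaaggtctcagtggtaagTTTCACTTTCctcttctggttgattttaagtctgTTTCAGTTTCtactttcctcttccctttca
Ifit3b: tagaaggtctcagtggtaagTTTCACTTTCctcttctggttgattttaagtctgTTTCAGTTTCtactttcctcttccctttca
They lie at chr4:156200855-156200916 (Isg15, minus strand), chr5:120907526-120907565 (Oas1a, minus), chr8:71537567-71537622 (Bst2, minus), chr19:34640765-34640833 (Ifit1, plus), chr19:34583353-34583436 (Ifit3, plus) and chr19:34607749-34607832 (Ifit3b, plus). Isg15 held 3 matches and the other genes shown held 2. The stretches of Ifit3 and Ifit3b were identical over 84 bases, although they lay 32 bases apart in their distance to the annotated start. Gbp3 and Irgm1 were the other genes with 2 upstream matches.

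The GAS, searched as TTCNNNGAA with N any base, was found in 8 of the 28 windows (28.6%, against 9.55% of all genes). A GAS match can overlap an ISRE match, and did so in Bst2 and Ifitm3. Of 51 further interferon-induced genes that are not among the 39, 23 of the 41 with a window (56.1%) held the ISRE core. So did 11 of 20 interferon ligand genes (55%). Of the other pathway genes with a window, 0 of 5 interferon receptor genes and 0 of 4 kinase and STAT genes held it. It was found in 1 of 5 other interferon regulatory factor genes, 1 of 11 sensing receptors and adaptors and 1 of 8 negative regulators and nucleases. Irf7, Irf9, Oasl2 and Cmpk2 held no ISRE match in these windows, which says only that the letters searched are not there.

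**Figure D1:**
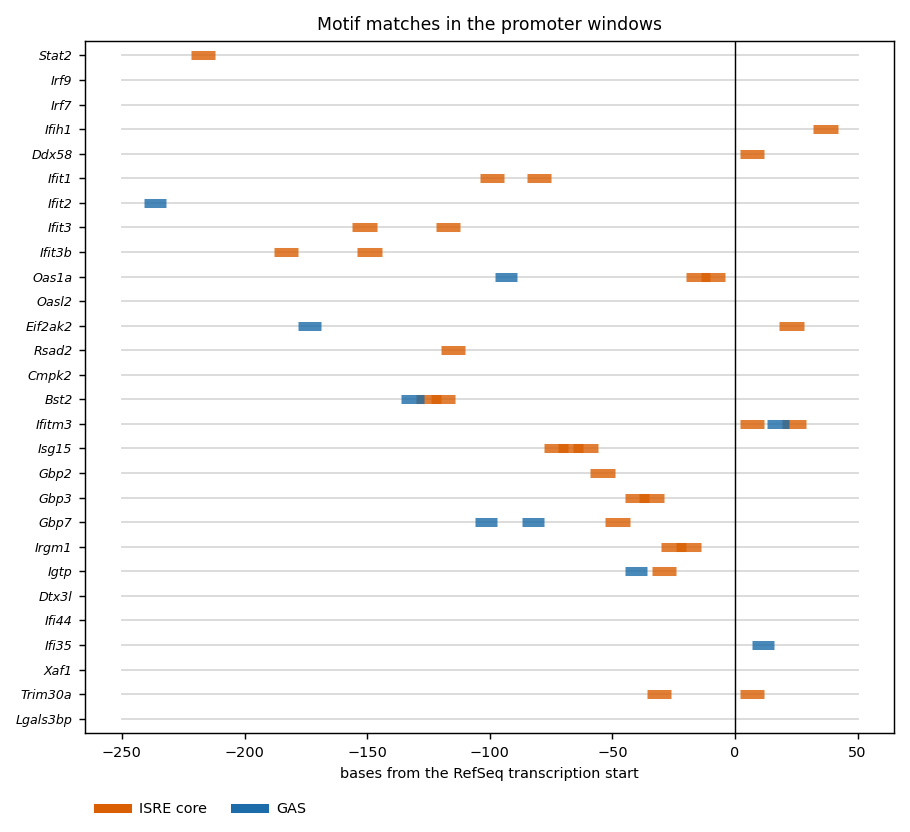
Positions of ISRE core matches (orange) and GAS matches (blue) in the RefSeq promoter windows of 28 interferon-stimulated genes, in bases from the transcription start (vertical line). The 4 genes with more than 1 window have all their windows drawn on a single line; 18 of the 28 genes hold an ISRE match.

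Expression was deposited as FPKM, a fragment number per unit of gene length and of library size. The library size in these values was scaled, at 0.744 to 1.218 times the fragments counted in a sample. Comparisons between samples therefore depend on that scaling, and others are given below. Whole fragment numbers could be recovered from the FPKM, and each sample held 17077780 to 24452419 fragments. At a length of 1 kilobase, 3 fragments (the floor used here, counting error only) equal 0.103 to 0.187 FPKM. Before the results, 2 libraries need naming, since AST replicate 2 and A-iSCs replicate 3 stood apart within their groups across all expressed genes. AST replicate 2 was the highest or the lowest of its group for 41.6 and 40.9% of 16568 genes, and A-iSCs replicate 3 for 42.1 and 41.6%.

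The labelled cell types were checked against marker lists. The neural progenitor list (8 genes) summed to 331 to 354 FPKM in ASTs and 293 to 354 in A-iSCs. It summed to less in the groups labelled NPC, 126 to 163 FPKM in P56-NPCs and 235 to 247 in P0-NPCs. Ependymal transcripts (3 genes) summed to 190 to 247 FPKM in P56-NPCs and to 40.7 to 72.3 in samples of the other groups. The astrocyte list (8 genes, Gfap and Aldoc among them) summed to 143 to 161 FPKM in ASTs, 1211 to 2466 in A-iSCs, 2834 to 3072 in P56-NPCs and 238 to 303 in P0-NPCs. P56-NPCs also held oligodendrocyte-lineage transcripts, summed over 6 genes to 7936 to 9034 FPKM, and P0-NPCs neuronal ones, 657 to 808 FPKM over 5 genes. The microglia list (8 genes, led by C1qa) summed to 143 to 161 FPKM in ASTs, 1333 to 1682 in A-iSCs, 618 to 657 in P56-NPCs and 85.3 to 99.0 in P0-NPCs. The fibroblast and meningeal list (5 genes, led by Col1a1) summed to 145 to 196 FPKM in ASTs, 8.996 to 10.8 in A-iSCs, 24.7 to 26.5 in P56-NPCs and 84.5 to 95.6 in P0-NPCs. Endothelial and mural transcripts (6 genes) summed to 114 to 123 FPKM in P0-NPCs and to at most 16.0 in a sample of the other groups. The NPC suspensions were thus mixtures, and in none of the groups were the microglial genes absent. In such bulk RNA, fewer cells of a type and less RNA per cell cannot be told apart.

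Across the 39 genes together, interferon-stimulated transcripts were most abundant in A-iSCs, less so in ASTs and scarce in both NPC groups. Their summed level was 1444 to 2032 FPKM in ASTs, 1762 to 2609 in A-iSCs, 153 to 244 in P56-NPCs and 65.8 to 97.0 in P0-NPCs. They took 0.209 to 0.240% of all fragments in ASTs and 0.420 to 0.526% in A-iSCs, against 0.0264 to 0.0413% in P56-NPCs and 0.0190 to 0.0259% in P0-NPCs. The highest group mean was in A-iSCs for 33 of the 39, in ASTs for 5 (Bst2, Ifitm3, Ifi27, Ddx58 and Eif2ak2) and in P56-NPCs for Cmpk2 alone. In 28 genes the means followed the order A-iSCs, ASTs, P56-NPCs, P0-NPCs. All 39 reached 1 FPKM in every A-iSC sample, 34 in each AST sample, 21 to 32 in a P56-NPC sample and 11 to 16 in a P0-NPC sample.

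**Figure D2:**
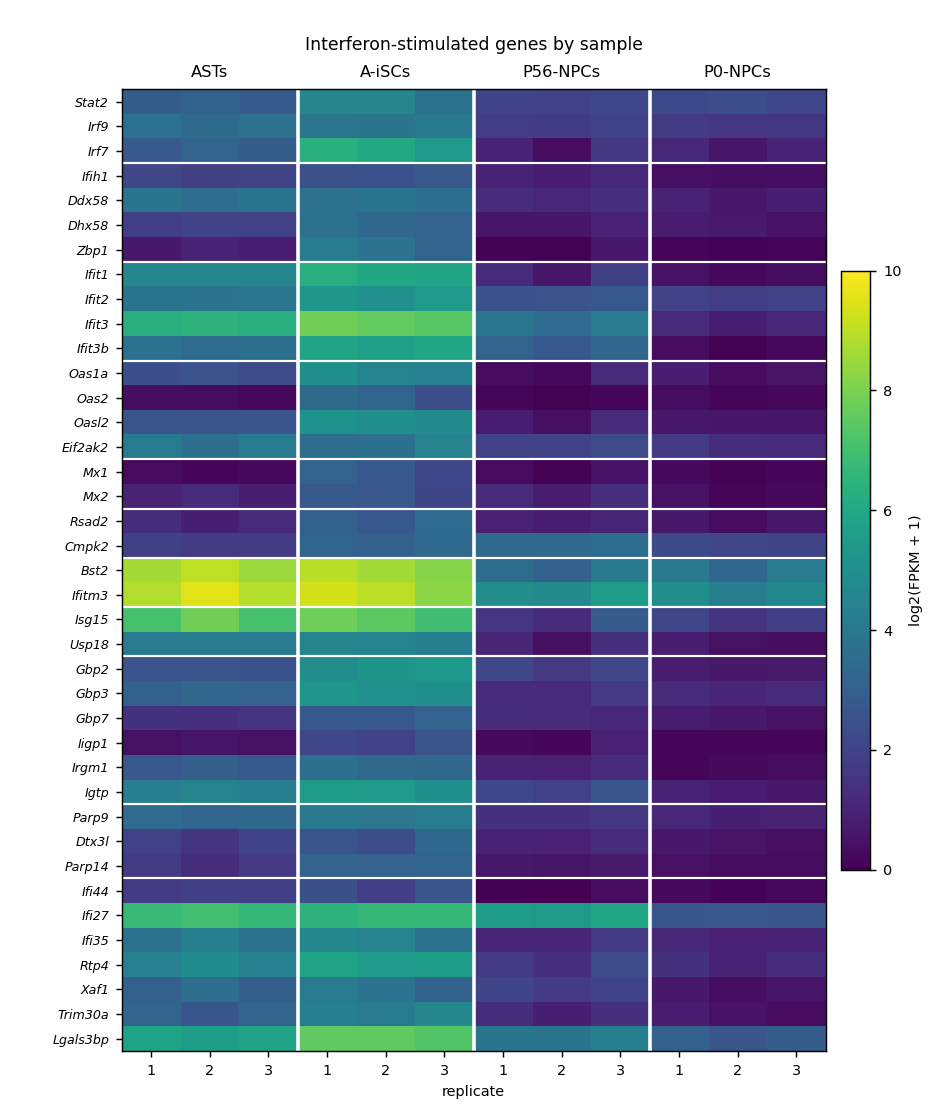
Heat map of log2(FPKM + 1) for the 39 interferon-stimulated genes (rows, grouped by role) in 12 samples (columns, replicates 1 to 3 of each group). The A-iSC columns are the brightest for 33 genes by group mean, and Bst2, Ifitm3 and Isg15 are bright in both ASTs and A-iSCs.

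The first comparison asks how the genes differed between ASTs on day 0 and A-iSCs on day 5. No ASTs kept for 5 days without spheres were sequenced, so sphere culture and time in culture cannot be told apart. With limma on log2(FPKM + 1), A-iSCs exceeded ASTs in 28 of the 39 at a Benjamini-Hochberg adjusted p under 0.05 (called higher), and 0 were called lower. Of all 14087 genes tested, 54.8% were called, 25.2% higher and 29.6% lower. The median log2 fold change of the 39 was 1.36, against -0.06 over all genes tested. In 30 of the 39 every A-iSC sample lay above every AST sample, as in 28.8% of all genes tested. All 39 passed the filter on low values (a mean of 1 FPKM in either group), but Zbp1, Oas2, Mx1 and Iigp1 passed only through the A-iSCs. With library-size scaling, which moved the median of all genes to 0.13, 31 were called higher (Irf9, Usp18 and Ifi44 in addition), and with all 4 groups in 1 fit 30 were (Irf9 and Ifi44 in addition). With 1 library left out at a time, 27 to 31 were called higher, the calls gained without A-iSCs replicate 3 being Usp18, Ifi35 and Xaf1, and the call lost without AST replicate 2 being Dtx3l.

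The most abundant genes in ASTs did not pass the test. The 4 genes above 100 FPKM in ASTs (Bst2, Ifitm3, Isg15 and Ifi27) had log2 fold changes of -0.23 to 0.07, and 0 of them was called. Their signs were not stable, since Bst2 and Ifi27 came out above 0 with library-size scaling, Isg15 below 0 with upper-quartile scaling, and Bst2 and Ifitm3 above 0 without A-iSCs replicate 3. The 4 genes under 1 FPKM in ASTs were at mean levels of 3.82 to 13 FPKM in A-iSCs, and could be tested only because they were high there.

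The genes of the microglia list moved in the same comparison. All 8 were called higher, with a median log2 fold change of 2.61, and their summed levels are given above. Of the 6 markers of other leukocytes, 0 reached a mean of 1 FPKM in either group. Their sum was low in both but higher in A-iSCs, at 0.178 to 0.767 FPKM in ASTs and 0.940 to 1.19 in A-iSCs. The T cell gene Cd3e was at 0 in every A-iSC sample. Of the astrocyte list, 7 of 8 were called higher. Of the neural progenitor list, 4 of 7 tested were called higher and 2 (Nes and Egfr) lower. Of the fibroblast and meningeal list, Col1a1 and Col1a2 were called lower, at -5.32 ± 0.16 and -2.98 ± 0.12, and Pdgfra higher. The part of these cell types in the values of the interferon-stimulated genes was not tested.

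Among the transcription factors of the response, Irf7, which amplifies interferon production, differed most. Irf7 measured 5.92, 8.41 and 6.72 FPKM in the 3 AST samples and 79.7, 65.0 and 40.3 in the A-iSC samples. In P56-NPCs it measured 0.992, 0.264 and 2.09 FPKM and in P0-NPCs 1.24, 0.528 and 0.9999. The A-iSC samples stood clear of all others, at a log2 fold change of 2.92 ± 0.25 (SE) over ASTs. Irf9, the DNA-binding subunit of the STAT complex, measured 12.5, 9.93 and 12.6 FPKM in ASTs and 14.3, 13.9 and 15.4 in A-iSCs (log2 fold change 0.30 ± 0.12, not called). It lay at 1.96 to 3.08 FPKM in all 6 NPC samples. Stat2, the STAT partner of IRF9, was at 6.96 ± 0.684 FPKM (SD, n = 3) in ASTs and 20.1 ± 6.5 in A-iSCs.

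Of the 4 nucleic acid sensors, Zbp1, which binds left-handed nucleic acid, differed most. It measured 0.625, 0.950 and 0.809 FPKM in ASTs and 17.7, 13 and 8.34 in A-iSCs. In P56-NPCs it was at 0.049, 0.0353 and 0.619 FPKM, and in P0-NPCs at 0.0681 to 0.103. The gene's floor of 3 fragments was 0.0292 to 0.0530 FPKM, and P56-NPC replicate 3 stood apart from the other NPC samples. Ddx58, which encodes the RNA sensor RIG-I, measured 13.4, 10.8 and 13.4 FPKM in ASTs and 12.6, 13.3 and 11.5 in A-iSCs. These groups overlapped, and both lay above the NPC samples, at 0.604 to 1.62 FPKM. Ifih1, which encodes the RNA sensor MDA5, rose from 3.37, 2.71 and 3.19 FPKM in ASTs to 4.51, 4.73 and 5.98 in A-iSCs, and was at 0.298 to 1.2 FPKM in the NPC samples. Dhx58, a regulator of both sensors, had a log2 fold change of 1.48 ± 0.17.

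All 4 IFIT genes, whose products bind viral RNA, were called higher in A-iSCs, as were 25.2% of all genes tested. Ifit3 measured 75.4, 87.8 and 76.7 FPKM in ASTs and 226, 193 and 169 in A-iSCs. The NPC groups differed in it, with 14.4, 10.4 and 16.8 FPKM in P56-NPCs and 1.30, 0.768 and 1.23 in P0-NPCs. Ifit3b followed the same order with 12.7, 10.5 and 11.8 FPKM in ASTs, 56.1, 51.0 and 58.8 in A-iSCs and 8.21, 5.83 and 8.95 in P56-NPCs. In P0-NPCs it was at 0.0515 to 0.262 FPKM. Ifit3 and Ifit3b are near-identical neighbours on chromosome 19 that share the promoter stretch printed above, and the counting could split fragments between them. Between ASTs and A-iSCs the log2 fold changes were 1.28 ± 0.15 for Ifit3, 2.15 ± 0.12 for Ifit3b, 1.39 ± 0.14 for Ifit1 and 1.37 ± 0.12 for Ifit2.

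The 2-5A synthetases make the activator of the RNA-degrading enzyme RNase L. Oas2 lay at 0.281, 0.244 and 0.157 FPKM in ASTs and at 9.95, 8.28 and 4.32 in A-iSCs. In the NPC samples Oas2 was at 0.042 to 0.275 FPKM, overlapping the ASTs in P0-NPCs. Oasl2, of the same gene family, measured 5.09, 5.11 and 5.25 FPKM in ASTs and 33.2, 30.4 and 25.9 in A-iSCs. In the NPC samples Oasl2 was at 0.313 to 1.40 FPKM. For A-iSCs over ASTs the log2 fold changes were 2.73 ± 0.25 for Oas2, 2.32 ± 0.12 for Oasl2 and 2.21 ± 0.18 for Oas1a. Oas1a has close copies, so its values carry the uncertainty of Ifit3. Eif2ak2, which encodes the RNA-activated kinase PKR, measured 15.9, 11.5 and 17.0 FPKM in ASTs and 11.2, 11.8 and 20.4 in A-iSCs. It differed between replicates more than between these groups, and lay at 1.28 to 3.89 FPKM in the NPC samples.

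The Mx GTPases trap viral components and are annotated as polymorphic pseudogenes in the deposited table. Mx1 was at 0.221, 0.104 and 0.199 FPKM in ASTs and at 7.84, 5.81 and 3.40 in A-iSCs, against 0.228, 0.0329 and 0.385 in P56-NPCs and 0.173, 0.0454 and 0.115 in P0-NPCs. Mx2 was at 0.990, 1.30 and 0.775 FPKM in ASTs, 5.93, 5.63 and 3.24 in A-iSCs, 1.26, 0.724 and 1.58 in P56-NPCs and 0.105 to 0.387 in P0-NPCs. Both genes were at a few FPKM in A-iSCs, and P56-NPCs overlapped ASTs in both.

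Rsad2 encodes viperin and lies beside Cmpk2, a mitochondrial nucleotide kinase, on chromosome 12. Rsad2 measured 1.49, 0.842 and 1.32 FPKM in ASTs, 7.62, 5.72 and 10.3 in A-iSCs, 0.904, 0.704 and 1.06 in P56-NPCs and 0.269 to 0.615 in P0-NPCs. Cmpk2 was the only gene of the 39 with its highest mean in P56-NPCs, with 2.72, 2.30 and 2.32 FPKM in ASTs, 8.21, 7.51 and 9.61 in A-iSCs and 9.80, 9.58 and 10.9 in P56-NPCs. In P0-NPCs it measured 3.79, 3.37 and 3.17 FPKM. P56-NPCs and A-iSCs overlapped in Cmpk2, and ASTs were lowest. Its log2 fold change was 1.45 ± 0.12 for A-iSCs and 1.69 ± 0.08 for P56-NPCs over ASTs.

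Bst2 (tetherin, which holds budding virus at the cell surface) and Ifitm3 (which blocks viral entry) had the highest means of the 39 genes in both ASTs and A-iSCs. Ifitm3 measured 464, 757 and 468 FPKM in ASTs and 648, 514 and 305 in A-iSCs. In P56-NPCs it was at 29.99, 25.8 and 45.3 FPKM and in P0-NPCs at 30.6, 18.3 and 24.7. Bst2 measured 399, 531 and 365 FPKM in ASTs, 493, 391 and 286 in A-iSCs, 10.6, 7.66 and 15.7 in P56-NPCs and 15.7, 8.98 and 16.3 in P0-NPCs. ASTs and A-iSCs overlapped in both genes, with the highest value in AST replicate 2 and the lowest in A-iSCs replicate 3.

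Isg15, a ubiquitin-like protein attached to other proteins, behaved likewise. Isg15 measured 136, 229 and 133 FPKM in ASTs and 223, 179 and 120 in A-iSCs, against 1.97, 1.42 and 6.39 in P56-NPCs and 3.42, 1.86 and 2.58 in P0-NPCs. Usp18, which removes ISG15 and restrains the receptor, measured 16.4, 16.4 and 16.8 FPKM in ASTs and 22.5, 21 and 18.5 in A-iSCs. Its AST and A-iSC samples did not overlap, but the log2 fold change of 0.30 ± 0.11 was not called. In the NPC samples Usp18 was at 0.299 to 1.59 FPKM.

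The 6 guanylate-binding proteins (GBPs) and immunity-related GTPases, which attack the membranes around intracellular microbes, were all called higher in A-iSCs (25.2% of all genes), Iigp1 having passed the filter only through the A-iSCs. Gbp2 measured 5.22, 5.21 and 4.79 FPKM in ASTs and 28.7, 34.9 and 39.0 in A-iSCs (log2 fold change 2.52 ± 0.14). It was at 3.32, 2.18 and 3.33 FPKM in P56-NPCs and 0.614 to 0.695 in P0-NPCs. Igtp, an immunity-related GTPase, measured 18.2, 20.9 and 18.4 FPKM in ASTs, 42.4, 41.1 and 31.7 in A-iSCs, 3.45, 2.90 and 4.98 in P56-NPCs and 0.557 to 0.973 in P0-NPCs. The order of the 4 groups was thus the same in Gbp2 and Igtp, with no overlap between neighbours. Igtp shares 7974 bases with Irgm2 on the same strand, so fragments of the pair may not be told apart. Irgm1, a regulator of the other family members, measured 5.52, 7.21 and 5.80 FPKM in ASTs and 11.9, 10.1 and 9.12 in A-iSCs, and 0.135 to 1.30 in the NPC samples. Gbp3, Gbp7 and Iigp1 had log2 fold changes of 1.90 ± 0.12, 1.43 ± 0.14 and 1.75 ± 0.17.

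Parp9, Dtx3l and Parp14 lie together on chromosome 16. PARP9 and the ubiquitin ligase DTX3L form a complex, and PARP14 is an ADP-ribosyltransferase. Parp9 measured 10.2, 8.48 and 9.29 FPKM in ASTs and 15.4, 14.7 and 16.1 in A-iSCs. Parp14 measured 2.35, 1.49 and 2.25 FPKM in ASTs and 8.08, 7.81 and 8.39 in A-iSCs. Dtx3l, which shares 682 bases with Parp9 on the other strand, measured 2.86, 1.83 and 3.05 FPKM in ASTs and 5.01, 4.18 and 9.25 in A-iSCs. The A-iSC samples were above the AST samples in all 3 genes (as in 28.8% of all genes), and the call of Dtx3l was lost with no filter on low values. The 3 genes were at 0.257 to 2.11 FPKM in the NPC samples.

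Of the 7 other induced genes, Lgals3bp, a secreted glycoprotein, measured 54.6, 45.9 and 52.7 FPKM in ASTs and 185, 186 and 153 in A-iSCs. It was at 13.9, 13.5 and 19.1 FPKM in P56-NPCs and 5.26 to 7.58 in P0-NPCs. Ifi27 differed from the rest in its high level in P56-NPCs, with 108, 125 and 101 FPKM in ASTs, 86.3, 101 and 100.3 in A-iSCs and 47.2, 42.6 and 58.3 in P56-NPCs. In P0-NPCs Ifi27 measured 5.25 to 5.57 FPKM. Rtp4 and Trim30a, both called higher in A-iSCs, had log2 fold changes of 1.04 ± 0.18 and 1.29 ± 0.21. Ifi44, Ifi35 and Xaf1, at 0.34 to 0.47, were not called.

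The 2 NPC groups were each compared with ASTs, and these comparisons share the AST samples. Of 35 genes tested in P56-NPCs over ASTs, 31 were called lower and Cmpk2 higher, while of the 15146 genes tested 78.9% were called, 39.8% lower and 39.1% higher. Gbp7, Mx2 and Rsad2 were not called, and the median log2 fold change was -1.80. Mitochondrial genes took 16.5 to 17.6% of fragments in P56-NPCs, against 2.94 to 4.70% in ASTs, 3.05 to 7.03% in A-iSCs and 3.67 to 5.55% in P0-NPCs, and their part in these values was not tested. Of 35 tested in P0-NPCs over ASTs, 34 were called lower and Cmpk2 higher, at 0.37 ± 0.10, while of 15010 genes 79% were called, 40.9% lower and 38.1% higher. The median was -2.35. In 8 of the 35 genes for P56-NPCs and 20 for P0-NPCs only the AST mean reached 1 FPKM, so those genes entered the test through the group where they were high. Zbp1, Oas2, Mx1 and Iigp1 were under 1 FPKM in these groups and were not tested. In P56-NPCs over ASTs, Gbp7 and Rsad2 were called lower when AST replicate 2 was left out. In P0-NPCs over ASTs, Mx2 then fell under the filter, leaving 33 called lower.

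The size of the difference from ASTs varied by gene. Isg15 had log2 fold changes of -5.43 ± 0.43 in P56-NPCs and -5.50 ± 0.24 in P0-NPCs over ASTs, and Bst2 -5.17 ± 0.25 and -4.91 ± 0.24. Ifit3 was lower by more in P0-NPCs, at -5.28 ± 0.12, than in P56-NPCs, at -2.47 ± 0.17. Ifi27 was at -4.13 ± 0.10 and -1.17 ± 0.14 in the same order. Of the microglia list, 7 of 7 tested markers were called higher in P56-NPCs over ASTs, while in P0-NPCs over ASTs 2 of 7 were called higher and 3 lower. The part of these cells in the values was not tested.

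**Figure D3:**
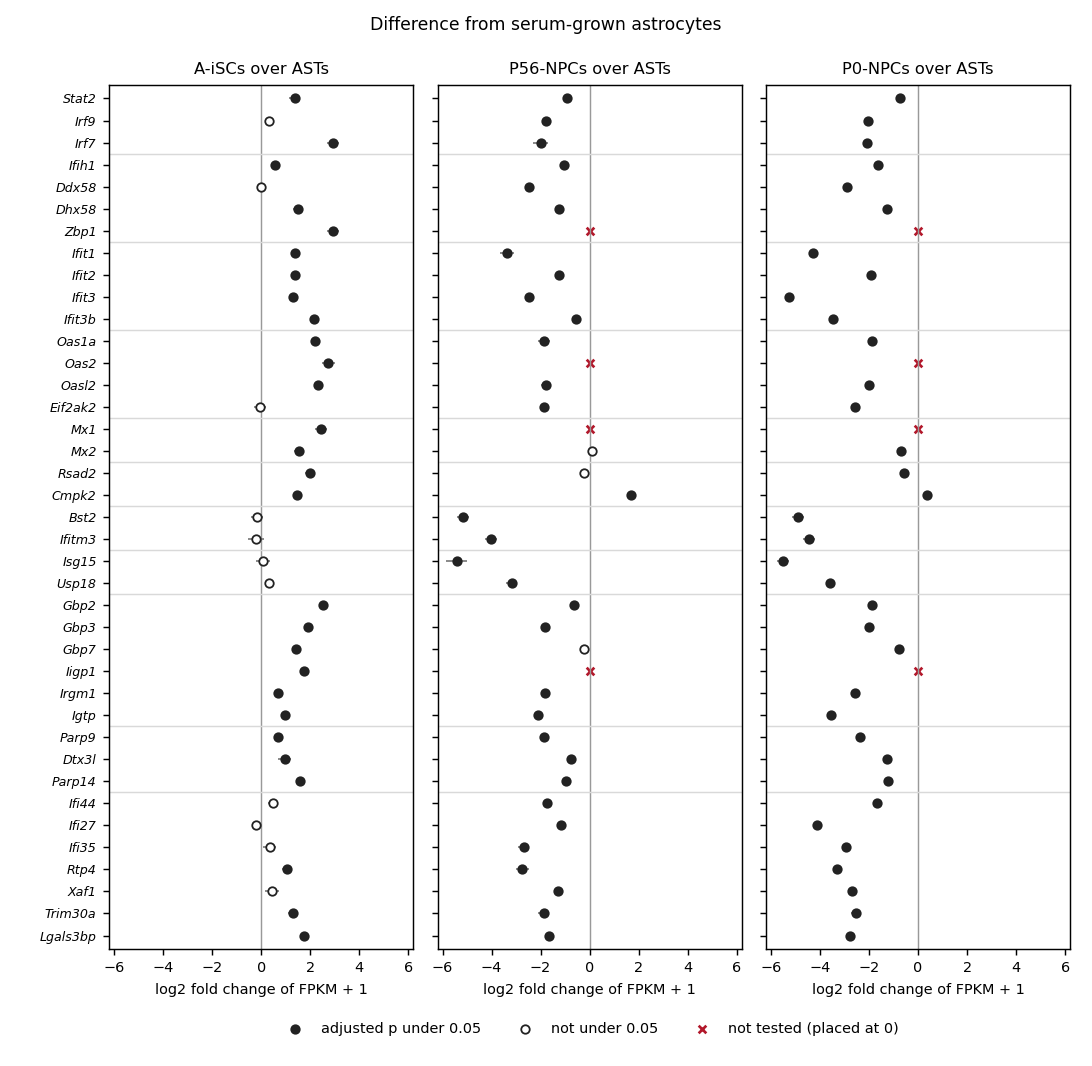
Log2 fold change of FPKM + 1 over ASTs for each of the 39 genes in A-iSCs, P56-NPCs and P0-NPCs, with the standard error as a bar (hidden where smaller than the point). Filled points were called, open points were not, and red crosses mark 4 genes not tested; the A-iSC points run from -0.23 to 2.92 and most NPC points lie below 0.

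A-iSCs were also compared with each NPC group, again sharing samples with the comparisons above. Over P56-NPCs, 38 of the 39 were called higher and 0 lower, against 30.1% of 15044 genes called higher and 61% in either direction, with a median log2 fold change of 2.72. Cmpk2 was the exception at -0.24 ± 0.11, and was called lower when A-iSCs replicate 3 was left out. Over P0-NPCs, 39 of 39 were called higher, against 31.5% of 15170 genes (65.1% in either direction), with a median of 3.28. Only the A-iSC mean reached 1 FPKM for 12 of the 39 in the first and 24 in the second comparison. On the log2(FPKM + 1) scale, which understates the change of genes low in NPCs, the highest values were those of Isg15 (5.5 ± 0.43) and Bst2 (5.01 ± 0.28) over P56-NPCs and of Ifit3 (6.55 ± 0.15) and Ifit1 (5.67 ± 0.14) over P0-NPCs.

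Within groups, the 39 genes often ranked the replicates in the same way. P56-NPC replicate 3 was the highest of its group for 36 of the 39 genes and the lowest for 1, against 35.2 and 37.2% of 16568 expressed genes, and P56-NPC replicate 2 was the lowest for 33, against 33.7%. P56-NPC replicate 3 exceeded the mean of the other replicates by a median of 0.33 on the log2(FPKM + 1) scale. P0-NPC replicate 1 was the highest of its group for 33 of the 39, against 27.5% of all expressed genes, with a median excess of 0.19. Among 51 further interferon-induced genes, which are not among the 39, P56-NPC replicate 3 was the highest for 35 and P0-NPC replicate 1 for 22. In A-iSCs, replicate 1 was the highest for 20 of the 39 (32.2% of all). Replicate 3 of A-iSCs was the lowest for 22 (41.6%) but also the highest for 15 (42.1%). Among the 51 further genes, A-iSCs replicate 1 was the highest for 32, and A-iSCs replicate 3 the lowest for 31 and the highest for 10.

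Other values were set beside these ranks. The summed microglia list in P56-NPCs differed little between replicates, at 618 to 657 FPKM. Dcn, a fibroblast transcript, was at 1.43 FPKM in P56-NPC replicate 1, 0.416 in replicate 2 and 3.18 in replicate 3, the rank order of many interferon-stimulated genes there. It was named after its values were seen, while the whole fibroblast and meningeal list differed little between these samples, at 24.7 to 26.5 FPKM. The Spearman correlation of the deviation with gene length over the 39 genes was -0.60 in P56-NPC replicate 3 (-0.17 over all expressed genes), -0.46 in P0-NPC replicate 1 (0.00), -0.54 in AST replicate 2 (-0.44) and 0.39 in A-iSCs replicate 3 (0.33). It was 0.57 in P56-NPC replicate 2 (0.15), 0.52 in P0-NPC replicate 2 (0.11) and 0.59 in AST replicate 3 (0.38). Genes of a sample share its library, and these values are descriptions. Their part in the ranks was not tested.

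**Figure D4:**
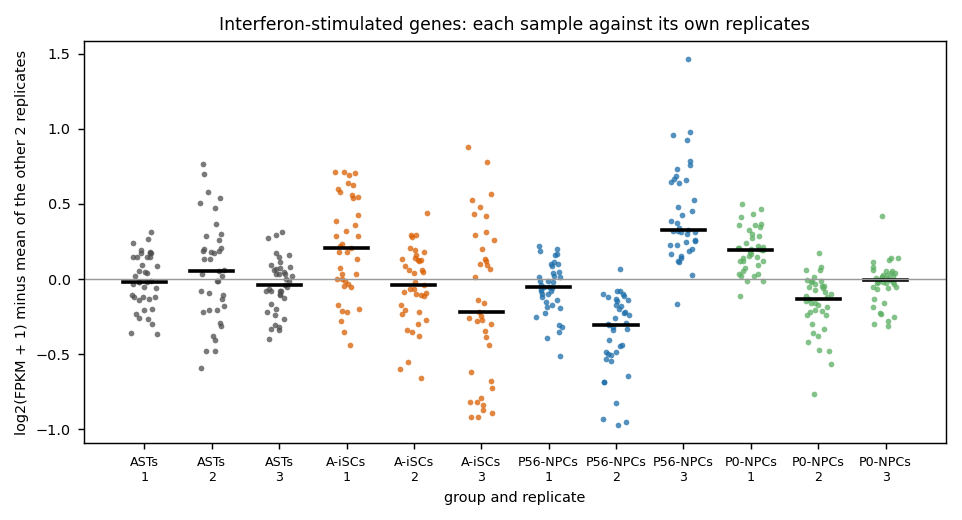
Difference of log2(FPKM + 1) in each sample from the mean of the other 2 replicates of its group, one point per interferon-stimulated gene, with the median of the 39 as a black line. Nearly all points of P56-NPC replicate 3 lie above 0 (median 0.33) and nearly all of P56-NPC replicate 2 below it (median -0.30).

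The rest of the interferon pathway was followed through 111 genes that are not among the 39, tested with limma over all genes. This list, too, was drawn up with earlier results of these data known. Beyond a set list, genes were named for their change in A-iSCs over ASTs, so their adjusted p-values in that comparison are not independent evidence. In A-iSCs over ASTs, 76 of the 111 were tested, of which 46 were higher, 4 lower and 26 not called, with a median log2 fold change of 0.67, against 25.2% higher and 29.6% lower of all genes tested. For 59 of them both groups reached a mean of 1 FPKM, and of these 30 were higher and 4 lower. Without AST replicate 2, 43 of the 111 were higher and 4 lower, and without A-iSCs replicate 3, 50 and 5.

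The interferons themselves were near the limit of detection. Of 21 ligand genes, 14 were at 0 fragments in every sample and 0 were tested. All ligand genes together received 0 to 8 fragments per sample, and no single gene more than 4. For Ifnb1, encoding interferon beta, 3 fragments correspond to 0.137 to 0.249 FPKM, so lower levels were not detectable at this depth.

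Of the receptor genes, Ifnar2 rose in A-iSCs over ASTs by 0.51 ± 0.11 on the log2 scale (adjusted p = 0.0063), and Ifngr1 by 0.45 ± 0.12 (adjusted p = 0.015). Ifnar1 was at 11.9, 11 and 11.9 FPKM in ASTs and 13.7, 13.7 and 15.2 in A-iSCs (0.27 ± 0.10, adjusted p = 0.0605). Ifngr2 was at 0.30 ± 0.12 (adjusted p = 0.0633). Il10rb, a chain shared by the receptors of interferon lambda and interleukin 10, rose by 1.13 ± 0.23 (adjusted p = 0.0054). Ifnar1 did not pass the test in P0-NPCs over ASTs (0.13 ± 0.08, adjusted p = 0.157), although it did with library-size scaling (adjusted p = 0.0030). It was lower in P56-NPCs (-0.51 ± 0.07, adjusted p = 0.000402). Of the 5 receptor genes tested, 3 were called lower and 1 higher in P0-NPCs over ASTs (40.9 and 38.1% of all genes). In P56-NPCs over ASTs, 4 were called lower and 0 higher (39.8 and 39.1%). The call of Ifngr1 was lost without A-iSCs replicate 1 or 2 or AST replicate 1 or 3 (adjusted p from 0.0517 to 0.0629). With library-size scaling Ifnar1 and Ifngr2 were called too (adjusted p = 0.0093 and 0.0111), as with all 4 groups in 1 fit (0.00996 and 0.0214).

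Among the signalling genes, Tyk2 rose by 0.90 ± 0.14 (adjusted p = 0.0016), Stat3 by 0.84 ± 0.23 (adjusted p = 0.0185) and Jak2 by 0.50 ± 0.17 (adjusted p = 0.0391) in A-iSCs over ASTs. Jak1 did not pass the test at 0.15 ± 0.16 (adjusted p = 0.483). The call of Stat3 was lost without AST replicate 2 (adjusted p = 0.0570). That of Jak2 was lost without A-iSCs replicate 2 or any AST replicate (adjusted p from 0.0525 to 0.112), with upper-quartile scaling (0.0916) and with no filter (0.0744).

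Among the other interferon regulatory factors, Irf8 and Irf5, known from microglia and other myeloid cells, differed most. Irf8 rose from 1.26 to 1.33 FPKM in ASTs to 16.4 to 19.1 in A-iSCs (log2 fold change 3.04 ± 0.10, adjusted p = 3.54e-06), and Irf5 by 2.39 ± 0.14 (adjusted p = 1.32e-05). Both were also higher in P56-NPCs than in ASTs, by 0.84 ± 0.08 (adjusted p = 6.45e-05) and 0.94 ± 0.10 (adjusted p = 7.21e-05), as were the tested microglia markers. Irf1 rose by 0.79 ± 0.17 (adjusted p = 0.0067) in A-iSCs over ASTs. Irf3, which starts interferon transcription after sensing, was at 0.24 ± 0.22 (adjusted p = 0.387), but was called without A-iSCs replicate 3 (0.50 on the log2 scale, adjusted p = 0.0091).

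Of 14 sensing receptors and adaptors, 8 rose in A-iSCs over ASTs and 0 fell, where 25.2% of all genes tested rose and 29.6% fell. Of the 10 at 1 FPKM or more in both groups, 5 rose. Tlr7, a receptor for single-stranded RNA, rose from 1.30 to 1.98 FPKM in ASTs to 14.7 to 20.6 in A-iSCs (2.83 ± 0.16, adjusted p = 1.22e-05). Aim2, a DNA sensor, rose by 2.28 ± 0.18 (adjusted p = 5.14e-05), the kinase gene Ikbke by 1.48 ± 0.18 (adjusted p = 0.000404) and Tlr9 by 1.14 ± 0.18 (adjusted p = 0.0016). Mavs, the adaptor of RIG-I and MDA5, was at 8.84 to 9.86 FPKM in A-iSCs and 9.23 to 11.8 in ASTs (-0.20 ± 0.12, adjusted p = 0.204). Tlr7 was also higher in P56-NPCs than in ASTs (1.60 ± 0.15, adjusted p = 4.54e-05).

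Of the negative regulators and nucleases, Socs3, an inhibitor of JAK kinases, rose by 1.2 ± 0.14 (adjusted p = 0.000374), Adar, which edits double-stranded RNA, by 0.63 ± 0.20 (adjusted p = 0.0301) and Pias1 by 0.40 ± 0.12 (adjusted p = 0.025). Samhd1, a dNTP hydrolase, fell by 0.41 ± 0.13 (adjusted p = 0.0297), and Socs1 did not pass at 0.49 ± 0.19 (adjusted p = 0.0615). With library-size scaling Samhd1 was no longer called (adjusted p = 0.203) and Socs1 was (adjusted p = 0.0215, and 0.0146 with all 4 groups in 1 fit). Without 1 library, Samhd1 lost its call for A-iSCs replicate 2 and each AST replicate (adjusted p from 0.0504 to 0.101), Adar for A-iSCs replicates 2 and 3 and AST replicates 1 and 2 (0.0540 to 0.0764) and Pias1 for A-iSCs replicate 1 and each AST replicate (0.0532 to 0.0990). With upper-quartile scaling the calls of Adar (0.0575) and Pias1 (0.0745) were lost, and with no filter that of Adar (0.0662). Socs1 gained a call without A-iSCs replicate 3 (0.0216) or AST replicate 2 (0.0392). Of the 51 further interferon-induced genes, 39 were tested in A-iSCs over ASTs, of which 25 rose and 3 fell (12 and 3 of the 26 at 1 FPKM or more in both groups), against the same shares of all genes. Phf11b, Slfn2, Epsti1 and Ifi204 were named because their changes were the largest of those called in this list. Phf11b rose by 3.20 ± 0.23 (adjusted p = 3.42e-05), Slfn2 by 2.53 ± 0.29 (adjusted p = 0.000325), Epsti1 by 2.53 ± 0.20 (adjusted p = 5.78e-05) and Ifi204 by 2.46 ± 0.16 (adjusted p = 2.36e-05). The 3 that fell were Pml (-0.52 ± 0.15, adjusted p = 0.0193), Apol9a (-1.04 ± 0.19, adjusted p = 0.0031) and Apol9b (-1.04 ± 0.24, adjusted p = 0.0084), named after their values were seen. The last 2 are near-identical copies of each other.

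In the other comparisons the 111 genes gave 9 higher and 44 lower of 63 tested in P56-NPCs over ASTs, and 8 higher and 46 lower of 62 in P0-NPCs over ASTs. The shares of all genes were 39.1% higher and 39.8% lower, and 38.1 and 40.9%. In A-iSCs, 64 were higher and 0 lower of 76 tested over P56-NPCs (without A-iSCs replicate 3, 3 were lower), and 62 higher and 1 lower (Ifitm1) over P0-NPCs. Here the shares of all genes were 30.1% higher and 30.9% lower, and 31.5 and 33.6%. Many of these genes passed the filter only through the group where they were high. Among those at 1 FPKM or more in both groups, 6 were higher and 31 lower of 45 in P56-NPCs over ASTs, and 5 and 22 of 34 in P0-NPCs over ASTs. In A-iSCs, 37 of 49 were higher over P56-NPCs and 23 of 37 over P0-NPCs. The lone lower call over P0-NPCs became 4 without A-iSCs replicate 3 and 2 without A-iSCs replicate 1. The number falling in A-iSCs over ASTs, 4, became 2 without AST replicate 1 or without AST replicate 3.

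**Figure D5:**
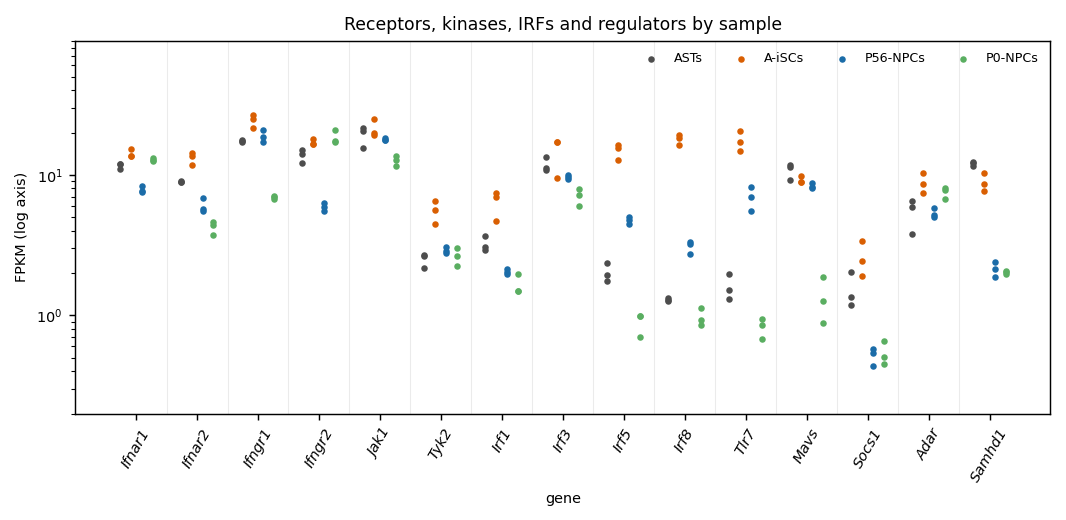
FPKM on a log axis of 15 pathway genes that are not among the 39, one point per sample, coloured by group. Irf8, Irf5 and Tlr7 are highest in A-iSCs and next in P56-NPCs, whereas Samhd1 is lowest in the NPC groups.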

How the data were processed

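RNA of 12 samples, 3 per group, was analysed. Per the study's methods, NEBNext Ultra libraries were sequenced as paired ends on an Illumina instrument and low-quality reads were removed. Values deposited by the authors are FPKM, in 1 table. Its header names no unit, which was found from the values. FPKM times gene length was a whole multiple of 1 step within each sample (100% of values within 0.05 of a step), and the fragments were recovered this way. The library size in these steps was 0.744 to 1.218 times the fragments counted, so the deposited values already held a scaling between samples. The labels' processing notes name Bowtie 0.12.2 and mm8, but 54985 of 55240 identifiers shared with GENCODE M21 had identical GRCm38 coordinates. The counter and its strand setting are not given in the sources used here, so fragments of overlapping genes (15 of the 39) cannot be assigned with certainty.

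Groups were compared 2 at a time with limma 3.58.1 (trend) in R 4.3.3 on log2(FPKM + 1), where either group averaged 1 FPKM or more, with Benjamini-Hochberg adjustment over all tested genes. This pseudocount understates the fold change of low genes. Scripts were tested on simulated data. Python 3.11.15 with pandas 2.3.3, numpy 2.4.6, scipy 1.17.1 and matplotlib 3.10.9 did the rest. Promoters are from RefSeq (GRCm38.p6). The 39 genes, the gene lists and the tests were chosen with earlier results of these data known. Values by sample, or their range over NPC samples, are given per role for the genes with the highest mean, the largest and smallest change in A-iSCs over ASTs and the largest gap between NPC groups, and named of the pathway are a set list plus up to 4 genes per subgroup called with the largest change. A gene that this rule names is not reported here. Alternatives were a pseudocount of 0.1, no filter, library-size and upper-quartile scaling, limma-voom on recovered fragments, all 4 groups in 1 fit, a replicate block and leaving out each sample.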

Additional observations from a re-analysis of the deposited data

How the results depend on the processing

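In all 5 comparisons, the counts of the 39 genes called higher stayed within 1.5 times their main value under every alternative run. With 1 library left out, the genes of the 39 called higher ranged from 27 to 31 in A-iSCs over ASTs, and those called lower in A-iSCs over P56-NPCs from 0 to 1. Pathway genes called lower in A-iSCs over ASTs numbered 7 with all 4 groups in 1 fit, 2 with library-size scaling, 7 with upper-quartile scaling and 2 to 5 with 1 library left out, against 4. Over P56-NPCs they numbered 1 with all 4 groups in 1 fit and 0 to 3 with 1 library left out, against 0. Over P0-NPCs they numbered 4 with all 4 groups in 1 fit, 3 with library-size scaling, 2 with limma-voom, 2 with upper-quartile scaling and 1 to 4 with 1 library left out, against 1. Library-size scaling moved the median log2 fold change of the 39 to 1.56 in A-iSCs over ASTs and 3.08 over P56-NPCs, as it moved the median of all genes to 0.13 and 0.49. A pseudocount of 0.1 moved it to -2.27 in P56-NPCs and -3.08 in P0-NPCs over ASTs, and to 3.51 and 4.45 in A-iSCs over P56-NPCs and P0-NPCs, since a smaller pseudocount widens the fold of low genes. With 1 library left out, the median of the 39 was 3.15 to 3.44 in A-iSCs over P0-NPCs. Library-size scaling also moved the all-gene median to -0.34 in P56-NPCs and 0.21 in P0-NPCs over ASTs. It changed the all-gene calls, higher and lower, from 3550 and 4165 to 4566 and 2990 in A-iSCs over ASTs (3027 and 4955 with upper-quartile scaling), from 5924 and 6032 to 4578 and 7561 in P56-NPCs over ASTs, from 5713 and 6146 to 7107 and 4862 in P0-NPCs over ASTs, and from 4532 and 4643 to 8333 and 2860 in A-iSCs over P56-NPCs.

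Directions were followed for the 39 in A-iSCs over ASTs and for the named pathway genes in all 5 comparisons, and turned only where a gene had not been called. Among the 39 these were Ddx58, Eif2ak2, Bst2, Ifitm3, Isg15 and Ifi27 in A-iSCs over ASTs, whose main values lay between -0.23 and 0.07. Among the pathway genes, in P56-NPCs over ASTs they were Ifngr1 (-0.22 with library-size and -0.048 with upper-quartile scaling), Tyk2 (-0.076 with library-size scaling) and Adar (-0.27 with library-size scaling, -0.12 with upper-quartile scaling, and from -0.18 without AST replicate 2 to 0.14 without AST replicate 3, with -0.04 without P56-NPC replicate 2). In P0-NPCs over ASTs it was Tyk2 (-0.024 with upper-quartile scaling, and from -0.026 without P0-NPC replicate 2 to 0.14 without P0-NPC replicate 3, with -0.017 without AST replicate 2). The cause was not tested. Same-numbered samples of A-iSCs and ASTs correlated in their deviations at -0.41, 0.35 and 0.45. Unlike numbers correlated as strongly, A-iSCs replicate 1 with AST replicate 2 at 0.54 and A-iSCs replicate 3 with AST replicate 2 at -0.57. With 3 samples per group, of which AST replicate 2 and A-iSCs replicate 3 stood apart, these values cannot decide whether the numbers pair the samples. With the replicate block, 28 of the 39 genes were called higher in A-iSCs over ASTs, as without it, and pathway calls changed for Socs1 (A-iSCs over ASTs, adjusted p = 0.0374), Irf3 (P56-NPCs over ASTs, 0.0693), Adar (P0-NPCs over ASTs, 0.0601) and Ifngr1 (A-iSCs over P56-NPCs, 0.0943). Depth limits the genes near the floor of 3 fragments, among them the interferon genes and Zbp1, Oas2 and Mx1 in the NPC groups.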
